A study of Saccharomyces cerevisiae with 2 samples.

Results

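HXT1 to HXT7 are the main hexose transporter genes of the budding yeast Saccharomyces cerevisiae. They were picked by name, and all 7 had a value, out of 5598 named genes measured. Total RNA from yeast on 3% pyruvate and from yeast on 2% glucose was put on 2 arrays, both kinds of RNA on each, with the dyes swapped: array 1 carried pyruvate RNA in Cy3 and glucose RNA in Cy5, and array 2 carried pyruvate RNA in Cy5 and glucose RNA in Cy3. The sources used here do not give the strain, genotype, growth phase or sugar left at harvest. Nor do they say whether the arrays held RNA of separate cultures, so the p-values cover array-to-array spread alone, and that may be technical.

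Hxt proteins carry glucose and other hexoses down their gradient through the plasma membrane. They differ in affinity: Hxt1 and Hxt3 are low-affinity carriers suited to abundant sugar, Hxt6 and Hxt7 are high-affinity carriers suited to scarce sugar, and Hxt2, Hxt4 and Hxt5 lie between, in the textbook grouping used here. The genes are controlled through the membrane sensors Snf3 and Rgt2, which act by way of the corepressors Mth1 and Std1 on the repressor Rgt1, and through glucose repression by Mig1, which the kinase Snf1 relieves. Pyruvate enters the cell through other carriers, and the labels name no hexose for the cells on pyruvate.

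Each value below is a log2 ratio of pyruvate over glucose, so that 1 unit is a doubling and a negative value means lower in pyruvate. No source states which channel stands on top of the deposited ratio. The ratio was read as Cy5 over Cy3, the usual order and that of the labels' channels. This is likely rather than certain, and the other order would turn every sign below. On the likely reading 5 of 5 genes that glucose is known to repress were higher in pyruvate, from 3.80 ± 0.03 in ICL1, the isocitrate lyase, and 4.30 ± 0.05 in PCK1, the gluconeogenic carboxykinase, through 5.53 ± 0.22 in FBP1, the fructose bisphosphatase, and 5.78 ± 0.05 in JEN1, the lactate and pyruvate permease, to 6.06 ± 0.31 in ADH2, an alcohol dehydrogenase (SD, n = 2). These genes were listed with earlier results of these data known, so they are no independent check of the channel order. Of all genes, 27.1% were called higher on this reading and 17.2% lower, by the test described below. The table gives ratios only, without the brightness of either channel, so the level of one transporter cannot be set against that of another, and the number of arrays limits the precision.

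In pyruvate, 5 of the 7 transporter genes rose, 1 fell and 1 did not pass the test, a fit of every gene with limma in which p-values were adjusted by Benjamini-Hochberg and called under 0.05. HXT2, HXT4, HXT5, HXT6 and HXT7 rose, and HXT3 fell. With the near-identical HXT6 and HXT7 averaged as 1 gene, 4 rose and 1 fell. The RNA came from whole samples, so more RNA per cell and more cells with the RNA cannot be told apart. By the same test 44.3% of all genes were called, 27.1% higher and 17.2% lower. At least 2-fold on both arrays, 5 of the 7 were higher and 1 was lower, against 12.7% and 4.81% of all genes. The median over the 7 was 2.77 and that over all genes 0.10.

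The high-affinity genes HXT6 and HXT7 had the highest ratios of the family. HXT6 stood at 4.06 on array 1 and 3.72 on array 2, a mean of 3.89 ± 0.24 (SD, n = 2; 14.8-fold higher in pyruvate; limma adjusted p of 0.0115; 95% interval 3.44 to 4.35). HXT7 stood at 4.01 and 3.75, a mean of 3.88 ± 0.18 (14.7-fold; limma adjusted p of 0.0115; 95% interval 3.49 to 4.27). Their means ranked 40 and 41 from the highest among the 5598 genes, or from the lowest with the other channel order. These genes are near-identical copies, so each feature may have bound RNA of both, and the separate values are uncertain. The difference of HXT6 minus HXT7 was 0.05 on array 1 and -0.03 on array 2, and the 2 features of HXT6 differed from each other by 0.12 and 0.03.

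HXT5, an intermediate-affinity carrier known to be made in slowly growing and starved cells, followed with 3.96 on array 1 and 3.12 on array 2. Its mean of 3.54 ± 0.59 (11.6-fold higher; limma adjusted p of 0.0151; 95% interval 2.62 to 4.46) carried the widest spread of the 7. Its 2 features differed by 0.31 on array 1 and 0.24 on array 2, the widest gap among the 4 members with 2 features, and the same feature was the higher one on both arrays. HXT4 stood at 2.87 and 2.68, a mean of 2.77 ± 0.14 (6.83-fold higher; limma adjusted p of 0.0115). HXT2, which is known to be induced by low glucose, had 2.09 on array 1 and 2.46 on array 2, a mean of 2.27 ± 0.26 (4.83-fold higher; limma adjusted p of 0.0131). HXT2 was the only one of the 5 genes that rose with a higher ratio on array 2 than on array 1.

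Of the low-affinity genes, HXT3 fell and HXT1 did not pass. HXT3 stood at -2.63 on array 1 and -2.32 on array 2, a mean of -2.48 ± 0.22 (5.56-fold lower in pyruvate; limma adjusted p of 0.0126; 95% interval -2.90 to -2.05). Of the 5598 genes, 18 had a lower mean, or a higher one with the other channel order. Its 2 features differed by 0.02 and 0.01. HXT1, a gene known to be induced by high glucose, stood at -0.55 on array 1 and -0.20 on array 2. Its mean of -0.38 ± 0.25 did not pass (limma adjusted p of 0.124), and its 95% interval, from -0.84 to 0.08, holds no change and a 1.79-fold decrease alike. HXT1 was read from 1 feature, as were HXT2 and HXT7. HXT3 lay below HXT1 by 2.08 on array 1 and 2.12 on array 2, a difference of 2.10 ± 0.03 (4.28-fold).

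**Figure D1:**
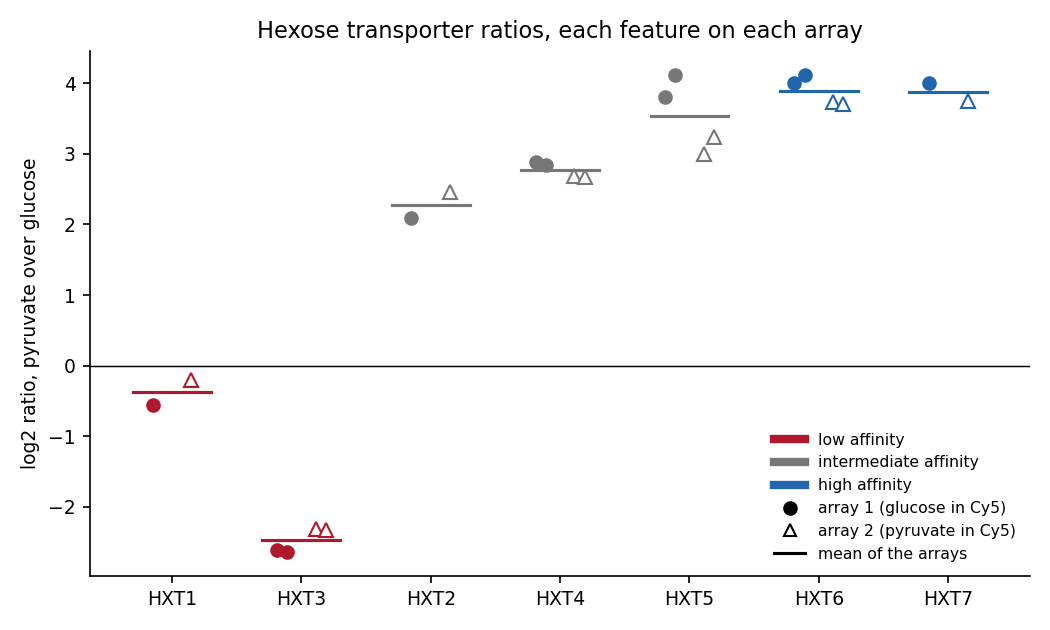
Log2 ratio of pyruvate over glucose (vertical axis) for each of the 11 features of HXT1 to HXT7 (horizontal axis, ordered by affinity class). Filled circles are array 1, open triangles array 2 and lines the mean of the arrays. The 5 genes of intermediate and high affinity lie between 2.09 and 4.12, and both low-affinity genes lie below 0, HXT3 near -2.5 and HXT1 near -0.4.

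The comparison of affinity classes was made on each array as a difference of class means, which cancels any constant offset of that array. The high-affinity class (HXT6 and HXT7) averaged 4.04 on array 1 and 3.74 on array 2, and the low-affinity class (HXT1 and HXT3) -1.59 and -1.26. High minus low was therefore 5.63 on array 1 and 5.0 on array 2, a mean of 5.31 ± 0.44 (SD, n = 2), or 39.7-fold. Against HXT3 alone the high-affinity genes differed by 6.36 ± 0.43, and against HXT1 alone by 4.26 ± 0.46, so the size of the class difference rests on which low-affinity gene is used. The intermediate class (HXT2, HXT4 and HXT5) averaged 2.97 and 2.75, above the low class by 4.29 ± 0.39 and below the high class by 1.02 ± 0.06. No p-value is given for these differences: the members of a class are not replicates, and 2 arrays are too few for a permutation test to pass. Where HXT4 was counted with the low and HXT2 with the high class, high minus low was 3.38.

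In order of mean ratio the genes ran HXT6, HXT7, HXT5, HXT4, HXT2, HXT1, HXT3. The array values of HXT6 and HXT7 overlapped, as did those of HXT7 and HXT5, where the difference was 0.05 on array 1 and 0.63 on array 2. HXT5 and HXT4 did not overlap, at a difference of 1.09 on array 1 and 0.45 on array 2. HXT4 and HXT2 did not overlap either, at 0.78 and 0.22. The widest steps were from HXT2 to HXT1, with 2.64 on array 1 and 2.66 on array 2, and from HXT1 to HXT3, given above. All 7 genes had the same direction on both arrays, as had 83.6% of all genes. Within the family the spread between arrays had a median SD of 0.24, against 0.13 over all genes.

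**Figure D2:**
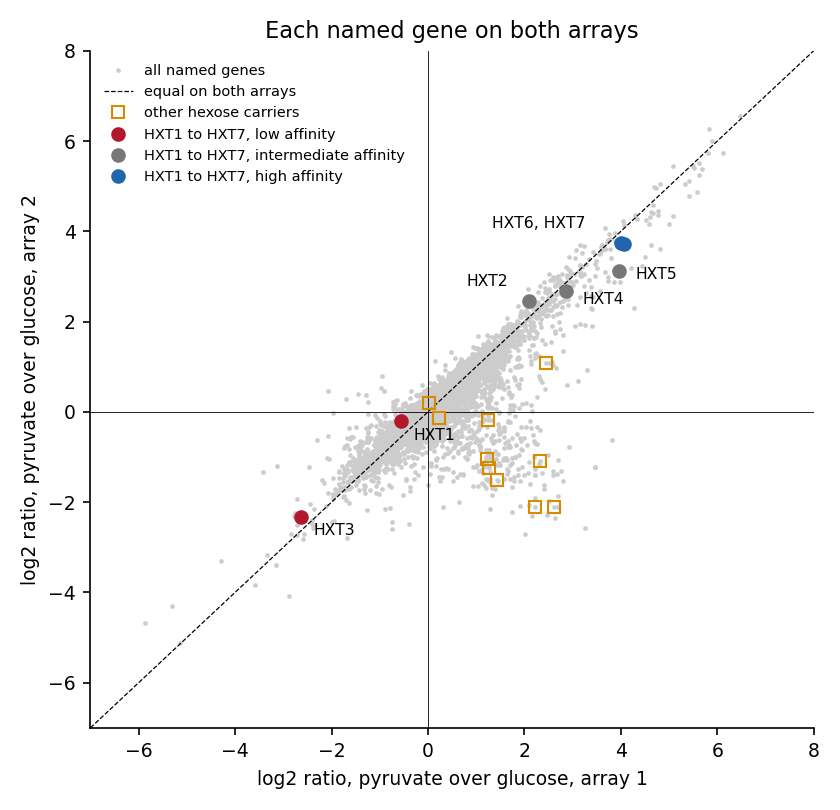
Log2 ratio of pyruvate over glucose on array 1 (horizontal axis) and array 2 (vertical axis), 1 point per named gene, with HXT1 to HXT7 coloured by affinity class and 10 other hexose carriers as open squares. The dashed line marks equal values. HXT2 and HXT4 to HXT7 lie in the upper right and HXT3 in the lower left, and HXT1 lies inside the cloud. Of the 10 other carriers, 8 had opposite directions on the arrays, against 919 of all 5598 genes.

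All but HXT2 lie in tandem groups, by the R64 assembly in the RefSeq gene table, which was used here for gene order only. On chromosome IV, HXT7 (YDR342C), HXT6 (YDR343C) and HXT3 (YDR345C) follow each other, with YDR344C, not analysed here, between HXT6 and HXT3. Genes of this group thus moved in opposite directions: the neighbours HXT7 and HXT6 rose and HXT3 fell, 6.36 ± 0.43 apart. On chromosome VIII, HXT4 (YHR092C), HXT1 (YHR094C) and HXT5 (YHR096C) follow each other, with AHT1, not analysed here, between HXT4 and HXT1. There HXT1, which did not pass, lies between 2 genes that rose. HXT2 (YMR011W) stands apart from the others on chromosome XIII.

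The genes that flank these groups, chosen by position after the ratios were known, had smaller ratios than the HXT genes that changed. On chromosome IV, YDR341C stood at -0.58 ± 0.12 (limma adjusted p of 0.0361) and SVF1 at -0.70 ± 0.15 (limma adjusted p of 0.0306), both lower in pyruvate. On chromosome VIII, MSR1 stood at 0.24 ± 0.01 and did not pass (limma adjusted p of 0.116), and PAL2 rose by 0.43 ± 0.04 (limma adjusted p of 0.0455). Beside HXT2, ANY1 fell to -0.69 ± 0.01 (limma adjusted p of 0.0222) and CLU1, at -0.32 ± 0.27, did not pass (limma adjusted p of 0.177). The array medians over genes, 0.18 and 0.02, were not removed, and the calls of flanking genes were not checked on centred arrays.

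**Figure D3:**
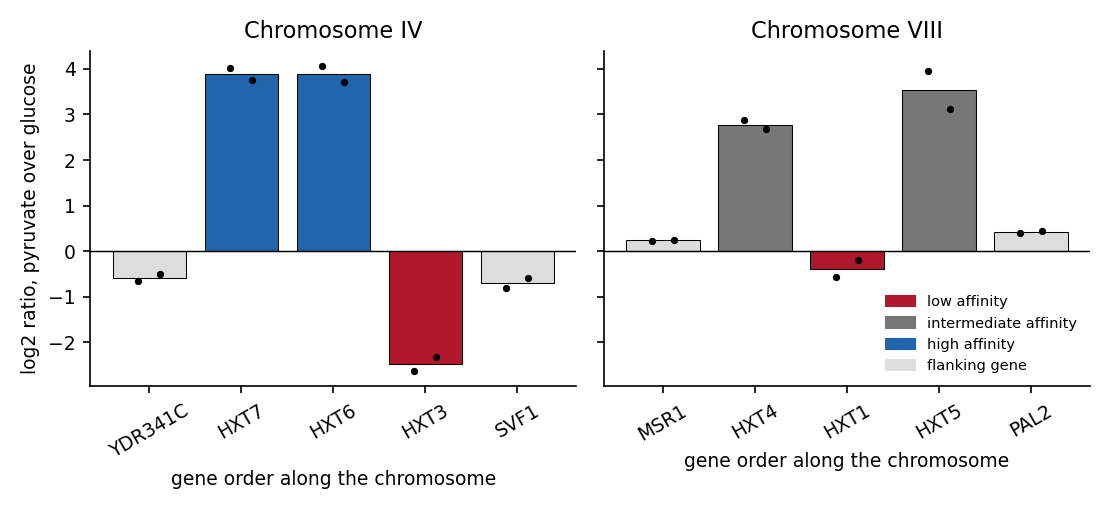
Mean log2 ratio of pyruvate over glucose (bars, from 0) for the HXT groups on chromosomes IV and VIII and the measured gene on either side, in gene order. Dots are array 1 (left) and array 2 (right). HXT3 falls in the same group as HXT6 and HXT7, which rise, and HXT1 lies near 0 between HXT4 and HXT5, which rise.

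Of 8 measured genes that sense glucose and pass the signal to the HXT promoters, 2 rose, 1 fell and 5 did not pass (list median 0.06). The share called, 3 of 8, was no higher than the 44.3% of all genes. MTH1, the corepressor that holds Rgt1 on HXT promoters, rose by 3.13 ± 0.28 (3.33 on array 1 and 2.93 on array 2; limma adjusted p of 0.0124). Its paralogue STD1 fell to -1.28 ± 0.24 (-1.10 and -1.45; limma adjusted p of 0.0196). SNF3, the sensor of low glucose, rose by 2.12 ± 0.01 (limma adjusted p of 0.0118), while RGT2, the sensor of high glucose, stood at -0.58 ± 0.39 and did not pass (limma adjusted p of 0.103). RGT2 was called lower with each array centred on its median (-0.68, limma adjusted p of 0.0196). RGT1, the repressor itself, was at 0.35 ± 0.10 and did not pass (limma adjusted p of 0.0745).

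Of 9 genes of glucose repression, 2 rose, 1 fell and 6 did not pass (list median 0.18), again no larger a share than the 44.3% called over all genes. MIG1, the main glucose repressor, rose by 1.13 ± 0.07 (2.19-fold; limma adjusted p of 0.0152), whereas its relatives MIG2 (-0.07 ± 0.18) and MIG3 (0.33 ± 0.02) did not pass (limma adjusted p of 0.663 and 0.0691). SNF1, the kinase, fell to -0.44 ± 0.02 (limma adjusted p of 0.0424). GLC7, the phosphatase that opposes it, rose by 0.46 ± 0.08 (limma adjusted p of 0.0450), but was at 0.36 with a limma adjusted p of 0.121 with each array centred on its median. These calls are on RNA only, and the kinase and phosphatase are known to be controlled largely through protein activity.

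Of the 4 genes that phosphorylate hexoses after uptake, 3 rose and 1 missed the threshold (list median 1.39), beside 27.1% of all genes called higher. HXK1, a hexokinase, rose by 4.84 ± 0.17 (28.7-fold; limma adjusted p of 0.0115), more than any of HXT1 to HXT7. EMI2, a paralogue of GLK1, rose by 1.45 ± 0.02 (limma adjusted p of 0.0127) and GLK1, the glucokinase, by 1.33 ± 0.15 (limma adjusted p of 0.0152). HXK2, the main hexokinase of glucose-grown cells, had a ratio of 0.53 ± 0.34, which did not pass (limma adjusted p of 0.101). Among genes for the ubiquitination and endocytosis of plasma membrane transporters, 1 of 7 rose, 2 fell and 4 did not pass, beside 44.3% called over all genes. CSR2, an arrestin-like adaptor of the ubiquitin ligase Rsp5, rose by 2.96 ± 0.46 (limma adjusted p of 0.0146), and ROG3, another such adaptor, fell to -1.11 ± 0.32 (limma adjusted p of 0.0282). The third gene called was ROD1, also an adaptor of this kind, at -0.44 (limma adjusted p of 0.0424), named after its value was seen because its list holds so few calls.

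**Figure D4:**
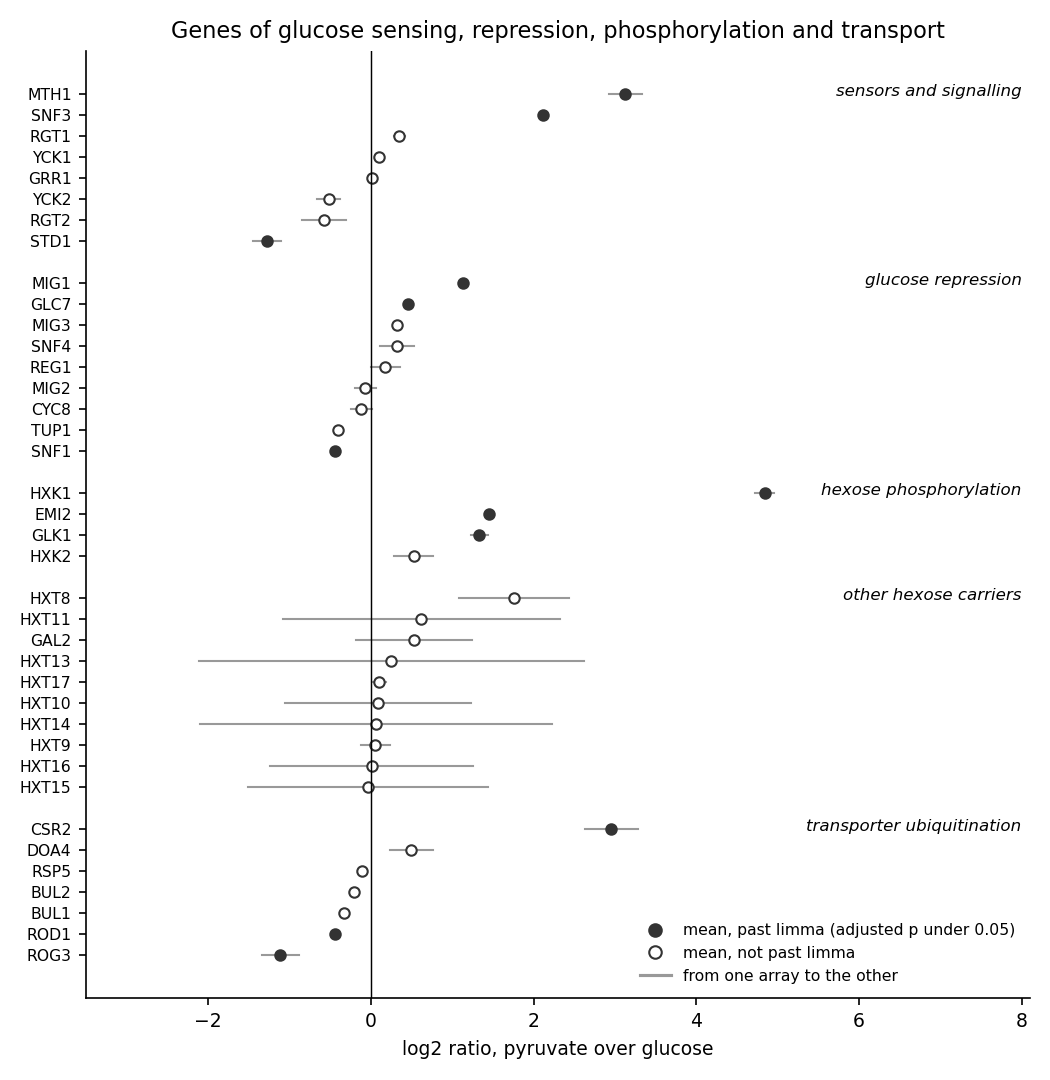
Log2 ratio of pyruvate over glucose (horizontal axis) for 38 genes in 5 lists of glucose sensing, repression, hexose phosphorylation, other hexose carriers and transporter ubiquitination. Circles are means, filled where limma's adjusted p was under 0.05, and lines join the arrays. MTH1, SNF3, HXK1 and CSR2 lie above 2, and most other carriers have lines that cross 0.

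The 10 other hexose carriers measured (HXT8 to HXT11, HXT13 to HXT17 and GAL2) gave no call by limma, beside 44.3% of all genes called. At an unadjusted p under 0.05 was 1 of the 10, HXT8, beside 3180 of all 5598 genes. Their spread between arrays had a median SD of 1.69, against 0.24 in HXT1 to HXT7 and 0.13 over all genes. Opposite directions on the arrays were seen in 8 of the 10, against 0 of HXT1 to HXT7 and 919 of all 5598 genes. HXT8 stood at 2.44 on array 1 and 1.09 on array 2, a mean of 1.76 ± 0.96 (limma adjusted p of 0.0631), and passed with each array centred on its median (1.66, limma adjusted p of 0.0044). HXT11 stood at 2.32 and -1.09, a mean of 0.62 ± 2.41 (limma adjusted p of 0.669), and the galactose permease gene GAL2 at 1.24 and -0.19, a mean of 0.53 ± 1.01 (limma adjusted p of 0.406). The widest spreads were those of HXT13, at 2.61 and -2.11, and HXT14, at 2.22 and -2.11. Because array 1 was multiplied by -1, opposite directions here mean that the deposited ratios had the same sign. The same dye channel was thus the higher one on both arrays, and the cause was not tested.

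By distance over the values of both arrays, the genes most like the mean of HXT6 and HXT7 were RRT6 (mean 3.92, distance 0.06 log2 units), CLD1, a cardiolipin phospholipase gene (3.92, distance 0.06), and SDH2, a succinate dehydrogenase subunit gene (3.93, distance 0.12). Most like HXT3 were TPO3, a polyamine exporter gene (-2.52, distance 0.08), LYS9 of lysine synthesis (-2.43, distance 0.09) and ENB1, a siderophore transporter gene (-2.48, distance 0.09). With 2 arrays this likeness says only that the ratios were close. Even HXT7 was the third nearest of 5597 genes to HXT6, at a distance of 0.06.

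Low signals can give ratios of small whole numbers, so such values were counted. In the whole table, 935 features on array 1 and, after a constant of 0.008 was subtracted, 784 on array 2 matched the log2 of 1 whole number over another, both at most 10, when compared to 3 decimals. On each array the offset used was the one with the most matches among those scanned. At other offsets a median of 136 and 141.5 matched, and at most 232 on array 1 and 401 on array 2. Among the 11 features of HXT1 to HXT7, 1 matched, on array 2: a feature of HXT3, whose other feature gave -2.64 and -2.33. With whole numbers up to 20, chosen after the data were seen, a feature of HXT5 (3.81 on array 1) and one of HXT6 (4.0 on array 1) were added. Without these 3 features HXT3 stood at -2.48, HXT5 at 3.68 and HXT6 at 3.91.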

How the data were processed

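The authors' deposited table holds log2 ratios between channels, for 10807 features and 2 arrays. Per the labels, total RNA was amplified with an Agilent kit and dyes were swapped. The sources used here do not give scanner, background correction, scaling or channel order. The log base was read from features at log2 of small whole-number ratios. The deposited medians were -0.29 and -0.08, and the arrays correlated at -0.81 over features of named genes, 0.86 over unnamed features and 0.157 over all features. Because named-gene features, on which the turn rests, were picked with these values known, that correlation is no independent check, but the labelled dyes call for the same turn.

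Array 1 was multiplied by -1 and features of a gene were averaged (9202 features with 1 gene in the platform annotation, 0 with several, 1605 with none; 9194 matched by gene identifier to current names). Turned medians over genes were 0.18 and 0.02 and were not removed. Genes were fitted in R 4.3.3 with limma 3.58.1 (lmFit, eBayes; 1 residual and 1.67 prior degrees of freedom). No dye term was fitted, since it would use up the residual degree of freedom, and a dye effect is part of the spread between arrays. Only the limma step was run on simulated data, drawn from its own fitted variances. That simulation cannot test the turn of array 1 or the averaging of features. Python 3.11.15 made tables and figures.

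The members, gene lists and affinity classes were chosen with earlier results of these data known. The text names all members, genes of sensing, repression and phosphorylation listed by name, and of each list the 2 largest ratios by size. It also names the 3 genes nearest in pattern to HXT3 and to HXT6 and HXT7. Any other gene was named after its values were seen. Protein, promoter and probe sequences were not used here.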

Additional observations from a re-analysis of the deposited data

How the results depend on the processing

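HXT2 to HXT7 kept their direction and stayed past limma's test under every alternative that was tested, except the fit without moderation. These alternatives were centring, scaling, feature medians, single features, leaving out features at small whole-number ratios, robust moderation, a 1.5-fold minimum and an adjusted p under 0.10. HXT1 did not pass under any of them, and its ratio ranged from -0.48 to -0.38. Without moderation 0 of the 7 genes were called higher and 0 lower by the plain test on limma's fit, beside 10 of 5598 genes called. At an unadjusted p under 0.05 in that fit were 4 of the 7, beside 1580 of 5598 genes. The ratios do not change in that fit: HXT2 at 2.27, HXT3 at -2.48, HXT4 at 2.77, HXT5 at 3.54, HXT6 at 3.89 and HXT7 at 3.88, with adjusted p between 0.154 and 0.199. The calls therefore rest on variance shared across genes. Among the 38 pathway genes, 8 were called higher and 4 lower, no larger shares than the 27.1% and 17.2% of all genes. Without moderation these counts were 0 and 0. Against a 1.5-fold minimum 0 were lower, beside 184 of all 5598 genes. On centred arrays 7 were lower, beside 1261 of 5598 genes. At an adjusted p under 0.10, 7 were lower, beside 1371 of 5598 genes. Without features at whole-number ratios up to 20, 8 were lower, beside 1251 of the 4896 genes left. The count over all genes thus moved in the same direction under each setting, and the cause was not tested. Over all genes 757 were called against a 1.5-fold minimum, against 2482. High minus low affinity, 5.31, was 4.63 with HXT2 and HXT4 in the high class and 3.38 with HXT4 in the low and HXT2 in the high class, because other genes enter the means. It lay between 5.30 and 5.33 under the other settings and was 5.0 and 5.63 without array 1 and without array 2. Without 1 array no test was possible, so counts of calls were not recomputed there. Each array holds both conditions, so every ratio already pairs pyruvate with glucose on the same array. With 1 group of arrays there was no further pairing to use.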
